A study of Mus musculus with 39 samples.

Results

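The 10 genes described here told the 2 Gaucher mouse lines of the series apart: Gdpd3, Adi1, Hddc3, Psmd6, Tmem87a, Ptprg, Pik3ap1, Arhgap26, Ifi202b and Rec8. They were chosen by measured values, as genes whose signal separated 9V/null from 4L arrays strongly in lung, or in both tissues, at all ages, and they are 10 of 18193 genes with a probe set of their own. All 21 probe sets annotated to these genes alone were followed among the 45037 tested. The size of the difference between the lines is therefore the basis of the choice and is given without a test.

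Lung and liver RNA was hybridised to Affymetrix Mouse Genome 430 2.0 arrays, every one loaded with RNA pooled from 3 mice. The 9V/null mice carry a D409V allele over a null allele of glucocerebrosidase (GCase), and the 4L mice are homozygous for V394L. Each line was sampled at 4, 12, 18 and 28 weeks with 2 arrays for each tissue and age. The wild-type (WT) group, 28 weeks old throughout, had 4 arrays of lung and 3 of liver. Age is therefore matched to WT in no other comparison than that of the 28-week mice. By the methods of the study, 9V/null and WT mice had a mixed background of FVB, C57BL/6J and 129SvEvBrd, while 4L mice had C57BL/6J and 129SvEvBrd without FVB. A difference of 4L mice from both other groups therefore cannot be told apart between the V394L allele and the strain background. Nothing in the labels ties an array to a litter or culture, so the p-values measure the spread between pools.

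Glucocerebrosidase is the lysosomal enzyme that splits glucosylceramide, and its loss in Gaucher disease fills macrophages of the liver, spleen and lung with this lipid. The 10 genes have no known role in that step. Gdpd3 encodes a lysophospholipase D of lipid mediator synthesis, Adi1 the acireductone dioxygenase of the methionine salvage pathway, and Hddc3 a hydrolase of the HD domain family. Psmd6 is a subunit of the regulatory particle of the 26S proteasome and Tmem87a a membrane protein of the Golgi. Ptprg is a receptor-type tyrosine phosphatase, Pik3ap1 the adaptor that couples the B cell receptor to phosphoinositide 3-kinase, and Arhgap26 a GTPase-activating protein. Ifi202b belongs to the interferon-inducible p200 family, and Rec8 is the cohesin subunit of meiotic chromosomes.

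Arrays of this kind read short stretches of each transcript, so that the value of a gene depends on the probe set that reads it. For each gene the probe set with the largest difference between the lines in lung is called its marking probe set. Gdpd3, Tmem87a, Ifi202b and Rec8 had 1 probe set each and the other 6 had several. A further probe set listed with Ifi202b and a second gene was not used. Signals are linear intensities, and log2 values have a floor of 16.

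Start regions of 8 of the 10 genes were read from RefSeq (GRCm38.p6), each with 250 bases before and 50 after an annotated start, and Ptprg had 2 of them. The regions of Gdpd3, with the widest difference between the lines in lung, of Rec8, with a wide one in lung alone, and of the interferon-inducible Ifi202b are printed 5′ to 3′. Capitals mark matches to 5 motifs searched on both strands.
Gdpd3 (chr7:126766164-126766463, plus strand): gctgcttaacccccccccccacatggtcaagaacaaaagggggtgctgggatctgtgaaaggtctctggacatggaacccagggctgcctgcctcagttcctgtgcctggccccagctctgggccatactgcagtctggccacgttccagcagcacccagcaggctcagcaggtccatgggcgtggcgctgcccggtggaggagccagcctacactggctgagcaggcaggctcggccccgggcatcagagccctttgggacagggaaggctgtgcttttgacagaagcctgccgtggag
Rec8 (chr14:55617916-55618215, plus strand): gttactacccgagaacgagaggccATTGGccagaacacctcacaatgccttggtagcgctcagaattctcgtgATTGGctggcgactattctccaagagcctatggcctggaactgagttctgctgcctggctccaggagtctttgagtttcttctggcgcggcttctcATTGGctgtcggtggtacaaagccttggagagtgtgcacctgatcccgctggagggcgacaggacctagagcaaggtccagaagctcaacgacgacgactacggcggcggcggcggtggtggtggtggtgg
Ifi202b (chr1:173982795-173983094, minus strand): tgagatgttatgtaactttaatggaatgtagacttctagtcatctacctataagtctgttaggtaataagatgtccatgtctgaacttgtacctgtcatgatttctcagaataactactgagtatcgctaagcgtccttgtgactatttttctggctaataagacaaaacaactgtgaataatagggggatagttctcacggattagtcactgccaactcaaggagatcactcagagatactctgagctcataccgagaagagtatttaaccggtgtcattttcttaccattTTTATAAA
The motifs were the TATA box (TATAAA), the CCAAT box (CCAAT), the GC box (GGGCGG), the E-box (CACGTG) and a short interferon response element. The Gdpd3 region held none of them. Rec8 had 3 matches to CCAAT, a motif present in 37.4% of the 32851 RefSeq start regions of this length. Ifi202b had 2 overlapping matches to TATAAA, one on each strand, downstream of the start, and TATAAA was present in 13.6% of all regions. The interferon response element was in 0 of the 9 regions of the 10 genes and in 3.44% of all regions. The Ifi202b region was 37.0% G and C, lower than all but 5.78% of regions, against 64.3% for Gdpd3 and a median of 52.7% over all regions. Over all 9 regions the TATA box was in 2 (Ifi202b and Psmd6), the GC box in 2 (Tmem87a and Psmd6), the CCAAT box in 1 (Rec8) and the E-box in 1 (Pik3ap1). The GC box was present in 35.7% of the 32851 regions and the E-box in 7.15%. A match does not show that a factor bound.

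Of all 45037 probe sets, 303 (0.673%) were called between 9V/null and 4L lung and 296 (0.657%) between the livers, by limma with an adjusted p no higher than 0.01 and a change of 1.8-fold or more. The 58 probe sets called in both tissues, 0.129% of all, went the same way in 54 cases. All 16 arrays of a tissue separated into the 2 lines without overlap for 217 probe sets (0.482%) in lung, 128 (0.284%) in liver and 22 in both. Between the lines, the 10 marking probe sets ranked from 1 to 876 in lung and from 2 to 17401 in liver by the size of the difference.

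**Figure D1:**
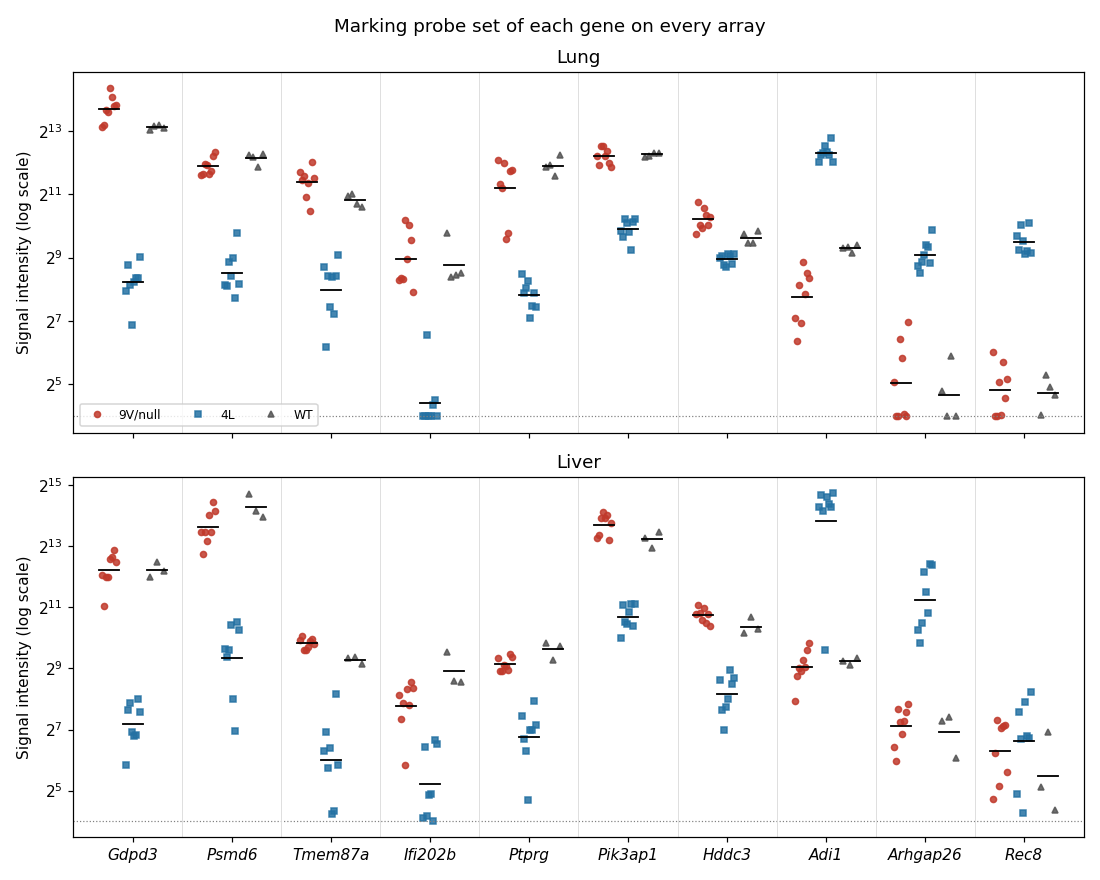
Signal intensity (log scale, values under 16 drawn at 16, dotted line) of the marking probe set of each gene on every array, lung above and liver below, with 8 arrays of 9V/null (red circles), 8 of 4L (blue squares) and 4 lung or 3 liver arrays of WT (grey triangles); black bars are means of log2 signal. In lung the 9V/null and 4L arrays did not overlap for any of the 10 genes, and the WT mean lay nearer to that of 9V/null than of 4L.

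Among the metabolic enzymes, Gdpd3 had the widest difference between the lines in lung. Its lung signal ran from 8873 to 20773 (median 13552) on the 8 arrays of 9V/null mice and from 118 to 522 (median 315) on the 8 of 4L mice. The 4 WT lung arrays read 8391, 9130, 9206 and 8752. In liver, 9V/null arrays lay between 2117 and 7483 (median 5036), 4L arrays between 57.4 and 255 (median 155), and the WT arrays at 4079, 5695 and 4725. No 4L array came near the other 2 groups in either tissue. The mean log2 difference, 9V/null minus 4L, was 5.48 in lung, a fold of 44.6, and 5.03 in liver, a fold of 32.8.

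Adi1 went the other way. At its marking probe set 9V/null lungs read 82.0 to 462 (median 258), 4L lungs 4128 to 7065 (median 4973), and the WT lungs 630.3, 642, 566 and 679. In this tissue every WT array was above every 9V/null array and below every 4L array. In liver the signal was 243 to 907 (median 526) in 9V/null, 611, 553 and 649 in WT, and 18306 to 27533 on 7 of 8 arrays of 4L mice. The remaining array, replicate 2 of the 12-week 4L livers, read 783 and lay inside the range of the 9V/null livers. The log2 difference was -4.54 in lung and -4.80 in liver, and -5.37 in liver without that array.

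On that 12-week liver array the second Adi1 probe set, of the same source record, was also low, at 3827 against 22798 to 31872 on the 7 other 4L livers, while the third was at 18497, above the 9657 to 17433 of those livers. Its values of Gdpd3 (121), Psmd6 (1385), Pik3ap1 (1412), Hddc3 (214) and Arhgap26 (4579) all lay within the range of the 7 other 4L livers. Ptprg (25.7 against 77.8 to 242) and Rec8 (19.4 against 29.8 to 303) were the lowest of the 4L livers there. The part of this array in the values of Adi1 is shown by the differences given with and without it.

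For Hddc3 the lungs of 9V/null mice read 856 to 1724 (median 1153), those of 4L mice 422 to 560.3 (median 519.6), and those of WT mice 866, 699, 703 and 923. In liver 9V/null arrays read 1358 to 2189 (median 1773), 4L arrays 127 to 499 (median 310), and WT arrays 1135, 1638 and 1247. Hddc3 had the smallest difference of the 10 genes in lung, 1.26 on the log2 scale, and 2.60 in liver, a fold of 6.06.

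For Psmd6, the proteasome subunit, the marking probe set read 3138 to 5202 (median 3641) on 9V/null lung arrays and 210.0 to 881 (median 315) on 4L lung arrays, with WT at 4824, 4640, 3735 and 4921. Liver arrays read 6921 to 22322 (median 11463) in 9V/null, 123 to 1462 (median 791) in 4L, and 27034, 18540 and 15941 in WT. The log2 difference was 3.36 in lung and 4.28 in liver. For the Golgi protein Tmem87a, 9V/null lung lay between 1428 and 4123 (median 2856), 4L lung between 73.1 and 545 (median 337) and WT lung between 1537 and 2071. Its liver signal was 777 to 1063 (median 928) in 9V/null, 18.6 to 287 (median 68.0) in 4L and 563 to 672 in WT. Tmem87a differed by 3.39 in lung and 3.84 in liver, and neither gene had an array of one line among those of the other.

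Among the signalling genes, Ptprg at its marking probe set had a lung signal of 767 to 4316 (median 2991) in 9V/null, 137 to 358 (median 234) in 4L and 3060 to 4780 in WT mice. The lowest 9V/null values, 767 and 882, were both at 18 weeks, and the other 6 arrays read 2372 or more. Its liver signal was 480 to 710 (median 549) in 9V/null, 25.7 to 242 (median 126) in 4L and 628 to 921 in WT. Log2 differences were 3.36 in lung and 2.38 in liver.

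For Pik3ap1 the lung arrays read 3754 to 5937 (median 4736) in 9V/null, 606 to 1198 (median 1002) in 4L and 4669 to 5067 in WT mice, a difference of 2.30. In liver the 3 ranges were 9525 to 17776, 1016 to 2231 and 7869 to 11409, a difference of 3.02. Arhgap26 had the opposite direction. In lung it read 5.2 to 124 on 9V/null arrays, 363 to 938 on 4L arrays and 6.5 to 59.4 on WT arrays, with 3 of the 8 arrays of 9V/null and 2 of the 4 of WT under the floor. In liver it was 63.0 to 227, 907 to 5554 and 66.5 to 169, in the same order of groups. The difference was -4.04 in lung and -4.13 in liver, and the lung value rests on a dim group, so it depends on the floor.

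Ifi202b was low in 4L mice. Lung arrays read 243 to 1162 (median 413) in 9V/null mice, 5.0 to 94.2 (median 13.2) in 4L mice, where 5 of 8 lay under the floor, and 882, 333, 347 and 364 in WT mice. Liver arrays read 57.2 to 377 (median 258) in 9V/null, 4.6 to 99.9 (median 29.2) in 4L, and 752, 389 and 380 in WT. The difference was 4.52 in lung and 2.59 in liver, where the lowest 9V/null array, at 12 weeks, lay below 3 of the 4L arrays, at other ages.

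Rec8 stood out from the other 9 genes by tissue. Lung arrays of 4L mice read 549 to 1084 (median 671), against 7.7 to 65.1 (median 28.8) in 9V/null and 16.4 to 39.2 in WT, a log2 difference of -4.68. Liver arrays read 19.4 to 303 (median 108) in 4L, 26.4 to 158 (median 104) in 9V/null and 20.6 to 121 in WT, a log2 difference of -0.34 with the 3 groups overlapping. Its expression is known from germ cells, and the level in lungs of 9V/null and WT mice was close to the floor.

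**Figure D2:**
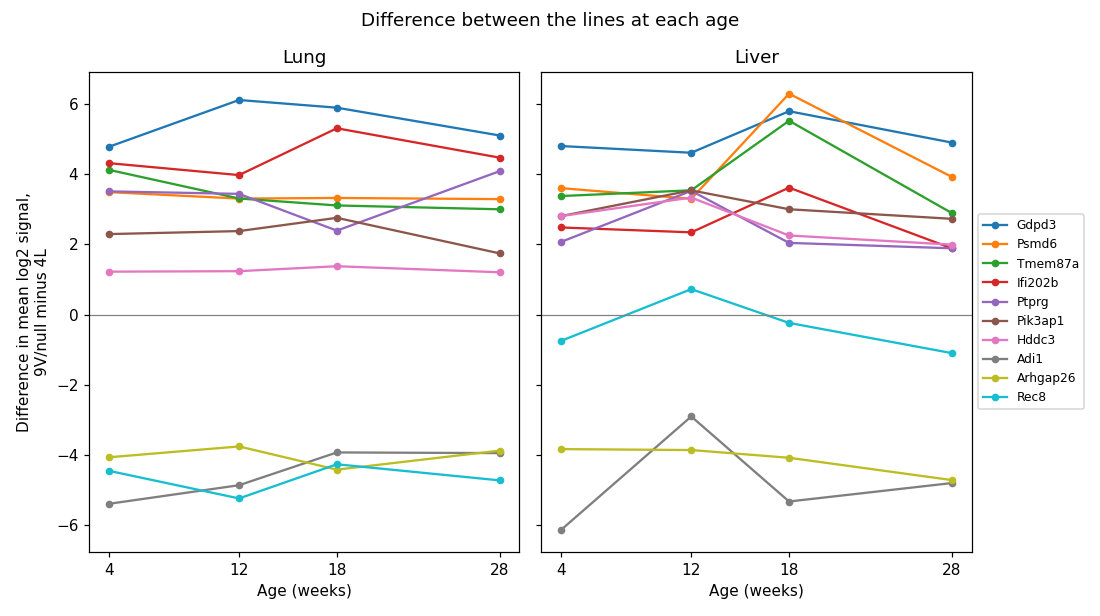
Difference in mean log2 signal between the lines, 9V/null minus 4L, at 4, 12, 18 and 28 weeks for the marking probe set of each gene, lung left and liver right; each point is the difference of means of 2 arrays per line, without an error. In lung each gene kept its direction at all 4 ages, with Ptprg lowest at 18 weeks, at 2.40, while Rec8 changed sign with age in liver and Adi1 was smallest in size at 12 weeks in liver, at -2.91.

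The difference between the lines was present at the youngest age. At 4 weeks the lung differences were 4.78 for Gdpd3, -5.40 for Adi1, 3.49 for Psmd6, 4.13 for Tmem87a, 4.32 for Ifi202b, -4.07 for Arhgap26, 3.52 for Ptprg, 2.30 for Pik3ap1, 1.22 for Hddc3 and -4.46 for Rec8. At 28 weeks the 7 genes higher in 9V/null lung differed by 1.21 (Hddc3) to 5.11 (Gdpd3), and the 3 others by -3.88 (Arhgap26) to -4.73 (Rec8). In lung, the 2 arrays of one line lay on one side of the 2 of the other at all 4 ages for all 10 genes, which is what the rule asked for. In liver the same was true of 9 genes, and of Rec8 at 0 ages. The share of all probe sets that separate in this way was not counted, so these counts are a description. A Ptprg probe set other than the marking one also separated in lung at all 4 ages. Its difference was 0.92 at 4 weeks and -0.34 at 18 weeks. Psmd6 and Tmem87a had their widest liver differences at 18 weeks, 6.30 and 5.53.

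Change with age was read within each line, with the limit that the rule asked for a difference at all ages and so used the same arrays. The mean of 12, 18 and 28 weeks was compared with 4 weeks within each line. In 4L lung 0 of 21 were called in limma, with 0.0111% of all probe sets called, and 0 had an unadjusted p under 0.05. The counts were 0 of 21 in 4L liver (background 0.226%, with 1 at an unadjusted p under 0.05), 0 of 21 in 9V/null lung (0.422%, with 4) and 0 of 21 in 9V/null liver (0.99%, with 3). The difference in this change between the lines is bound to the rule and is given as a count only, called for 0 of 21 in lung, with 0.0688% of all called and 2 at an unadjusted p under 0.05, and 0 of 21 in liver, with 0.131% and 1. With backgrounds this low, 0 of 21 is also what the whole array would give. The largest age changes within a line of marking probe sets were that of Adi1 in 9V/null lung, at 1.39 (standard error 0.62, adjusted p = 0.285), and that of Arhgap26 in 4L liver, at 1.59 (standard error 0.68, adjusted p = 0.351). The third Adi1 probe set came closest to a call in 9V/null lung, at 1.17 (adjusted p = 0.0102, standard error 0.23), and it passed under 6 alternative settings.

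WT arrays, which the rule did not use, show which line differed from WT. The 4L and 9V/null arrays in these tests were also used by the rule. Where 2 lines differ, at least one must differ from WT. The WT arrays thus add which line that was. The count, the sign and the p-values of the 4L calls are bound to the rule and are a description. In 4L lung 13 of 21 probe sets were called against WT (4 higher, 9 lower), with 10.1% of all probe sets called, and 9 of the 10 marking probe sets were among them. In 4L liver 11 of 21 were called (3 higher, 8 lower) against 5.53% of all, again with 9 of 10 marking probe sets. In 9V/null lung 0 of 21 were called, while 8.23% of all probe sets were, and 7 had an unadjusted p under 0.05. Of all 45037 probe sets, 15643 had such a p. In 9V/null liver 1 of 21 was called, while 5.76% of all were, and 0 of the 10 marking probe sets. Of the marking probe sets called in 4L mice, 3 were higher and 6 lower in lung, and 2 were higher and 7 lower in liver. The median size of the difference over the 10 marking probe sets was 3.85 in 4L lung and 3.51 in 4L liver, against 0.54 and 0.49 over all probe sets, and 0.47 and 0.48 in 9V/null mice, against 0.51 and 0.50.

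**Figure D3:**
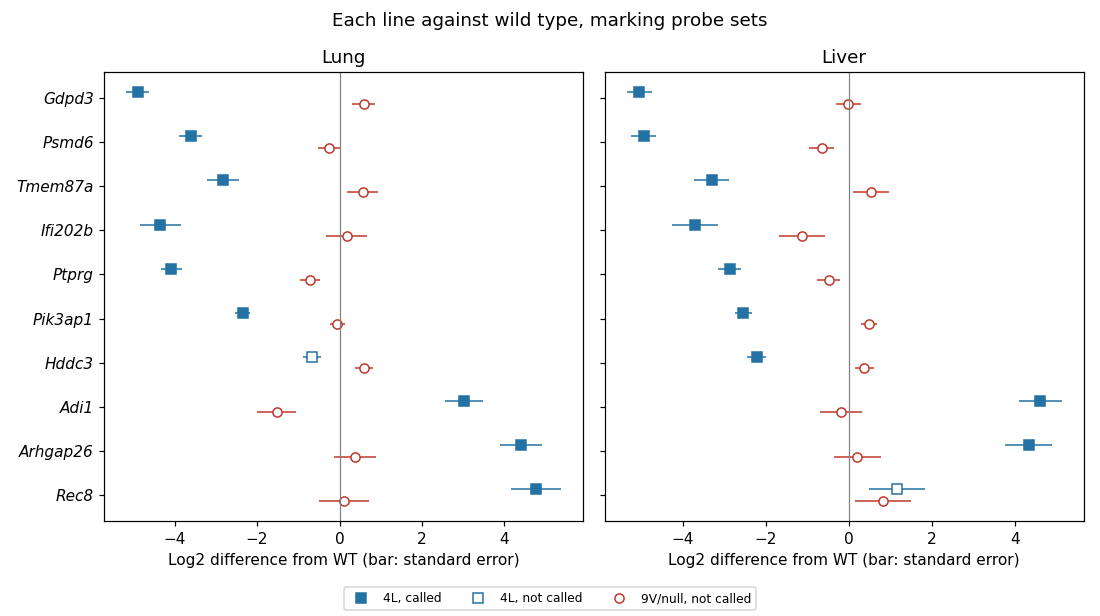
Log2 difference from WT of the marking probe set of each gene, as the mean of 4 ages, for 4L (blue squares) and 9V/null (red circles) in lung (left) and liver (right); bars are standard errors from limma over 39 arrays, and filled symbols were called. In both tissues 9 of 10 marking probe sets were called in 4L and 0 of 10 in 9V/null.

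The log2 difference of Gdpd3, 4L minus WT, was -4.90 in lung (limma adjusted p = 2.67e-10, standard error 0.28) and -5.04 in liver (adjusted p = 5.58e-10, standard error 0.31). For 9V/null minus WT it was 0.58 (adjusted p = 0.138) and -0.01 (adjusted p = 0.988). In 4L mice Psmd6 differed from WT by -3.61 in lung and -4.94 in liver, Ptprg by -4.08 and -2.87, and Ifi202b by -4.35 and -3.71. Tmem87a differed by -2.83 and -3.30, and Pik3ap1 by -2.35 and -2.54. At their marking probe sets these 6 genes were thus lower in 4L than in WT mice in both tissues. Other probe sets of Psmd6 and Pik3ap1 did not show this. That of Psmd6 differed by 0.39 (adjusted p = 0.055) in 4L lung and -0.20 (adjusted p = 0.46) in 4L liver. That of Pik3ap1 differed by 0.81 (adjusted p = 0.0825) in 4L lung and 1.42 (adjusted p = 0.0118) in 4L liver. Some other probe sets of Ptprg did not show a lower level in 4L liver either, as given below.

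Adi1 was higher in 4L than in WT mice by 3.01 (standard error 0.46, adjusted p = 6.67e-05) in lung and 4.62 (standard error 0.51, adjusted p = 5.08e-06) in liver. Arhgap26 was higher by 4.41 in lung and 4.33 in liver. Rec8 was higher in 4L lung by 4.77 (standard error 0.60, adjusted p = 7.74e-06), and its liver difference was 1.16 (standard error 0.67, adjusted p = 0.27). Hddc3 was lower in 4L liver by 2.22 (standard error 0.24, adjusted p = 3.15e-06), and its lung difference was -0.68 (standard error 0.22, adjusted p = 0.0245).

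Adi1 was the one marking probe set with a large difference from WT in lungs of 9V/null mice, at -1.53 (adjusted p = 0.0202, standard error 0.46), and it was not called. Without the 12-week 4L liver array that read 783, the same difference of -1.53 had a standard error of 0.22 and an adjusted p of 6.55e-05 and was called, since that array widened the spread shared by all groups. The single call in 9V/null liver was Pik3ap1 by its other probe set, higher by 1.53 (standard error 0.37, adjusted p = 0.00684), and in 4L liver the same probe set differed by 1.42 (adjusted p = 0.0118). This call was lost under 9 alternative settings, 6 of which leave out the arrays of 1 replicate number. Marking probe sets of Ifi202b and Tmem87a also did not overlap WT in 9V/null liver, though neither was called. Ifi202b read 57.2 to 377 against 380 to 752 in WT, and Tmem87a 777 to 1063 against 563 to 672.

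With age matched at 28 weeks, 10 of 21 probe sets were called in 4L lung (background 5.42%) and 8 of 21 in 4L liver (background 0.764%), with 8 and 7 of the 10 marking probe sets. The lung count was 4 without the 4L arrays of replicate 1, and the liver count 5 without those of replicate 2. In 9V/null mice 0 of 21 were called in lung (background 1.79%, with 0 at an unadjusted p under 0.05) and 0 of 21 in liver (background 0.371%, with 1). Such a p was found for 9816 of all 45037 probe sets in lung and 6975 in liver. Tmem87a was not called at this age, at -2.06 (adjusted p = 0.0133) in 4L lung and -2.29 (adjusted p = 0.028) in 4L liver. Ifi202b was called in 4L lung, at -4.52 (adjusted p = 0.000282), and was -2.33 (adjusted p = 0.0804) in 4L liver. In 4L lung all 10 marking probe sets had the same direction at 28 weeks as over the 4 ages. The 28-week arrays are part of that mean, and the rule asked for a difference at all ages, so this is no separate test.

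The effect against WT was compared between lung and liver. The rule asked for a difference between the lines in lung or in both tissues, and it used these arrays. This comparison is therefore bound to the rule, and its p-values are a description. In 4L mice 0 of 21 probe sets were called in limma, with 0.515% of all called and 8 of 21 at an unadjusted p under 0.05. In 9V/null mice 0 of 21 were called, with 0.298% of all and 0 at an unadjusted p under 0.05. Such a p was found for 8498 of all 45037 probe sets in 4L and 7809 in 9V/null mice. The 4L effect on Rec8 was larger in lung by 3.61 (standard error 0.90, adjusted p = 0.0306) and that on Hddc3 was less negative in lung by 1.55 (standard error 0.32, adjusted p = 0.0116), both outside the threshold. Counts in 4L rose to between 1 and 4 of 21 under 9 alternatives.

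WT lung and WT liver were compared with each other, on arrays that the rule did not use. Of the 21 probe sets 10 were called, 4 higher in lung and 6 higher in liver, against a background of 31.3%, and 4 of the 10 marking probe sets were called. Ptprg was higher in lung by 2.27 (standard error 0.31, adjusted p = 1.59e-06). The lung minus liver difference was -2.15 (standard error 0.34, adjusted p = 1.1e-05) for Psmd6 at its marking probe set, -2.24 for Arhgap26 and -0.98 for Pik3ap1. For Arhgap26, with 2 of 4 WT lung arrays under the floor, the value was -0.91 (adjusted p = 0.0306) with a floor of 64, and the call was lost under 8 alternatives. Leaving out a single replicate number ended it for 4L replicates 1 and 2 and WT replicates 1, 2 and 4, with values of -1.77 to -2.24. That of Pik3ap1 was lost without WT replicate 1 (-0.93) or 3 (-0.87). Gdpd3 (0.89, adjusted p = 0.0415), Tmem87a (1.52, adjusted p = 0.0119) and Hddc3 (-0.74, adjusted p = 0.0288) lay outside the threshold, and Adi1, Ifi202b and Rec8 had adjusted p-values of 0.957, 0.90 and 0.476. Centring each array on its median shifted all lung and liver differences by -0.69, so these values are relative to the authors' scaling.

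**Figure D4:**
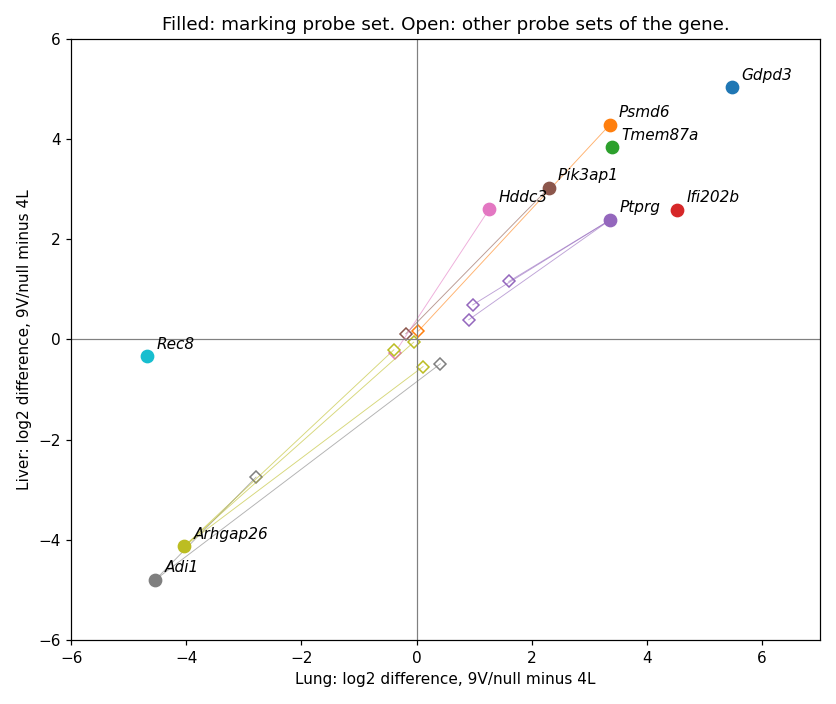
Difference between the lines (log2, 9V/null minus 4L) of all 21 probe sets in lung (x axis) and liver (y axis); filled circles are marking probe sets, open diamonds other probe sets of the same gene, joined to it by a line. Most open diamonds lie near 0, and those of Ptprg and 1 of Adi1 lie on the side of their marking probe set.

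In 6 genes a second or further probe set read the same gene symbol, and several of these did not show the difference between the lines. The second Psmd6 probe set, annotated to the same sequence record as the marking one, differed by 0.03 in lung and 0.17 in liver between the lines. In lung it read 7019.5 to 12911 on 9V/null arrays, 7342 to 10963 on 4L arrays and 7248 to 7962 on WT arrays. The 2 probe sets of Hddc3 also share a record, and the second differed by -0.38 in lung and -0.27 in liver. The 3 other probe sets of Arhgap26 differed by -0.39 to 0.11 in lung and by -0.54 to -0.06 in liver. The other probe set of Pik3ap1, annotated to a RefSeq transcript, differed by -0.19 in lung and 0.11 in liver.

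Ptprg was the gene whose probe sets went together in the difference between the lines. Its 3 other probe sets differed between the lines by 0.91, 0.98 and 1.60 in lung and by 0.39, 0.69 and 1.16 in liver, all on the side of the marking one. Against WT, the one with the widest of these differences was -1.60 in 4L lung and -1.75 in 4L liver, both called, and a further one was -0.94 in 4L lung, also called. These calls depended on the setting: the last was lost under 10 alternatives, at -0.71 (adjusted p = 0.0332) with median centring, and also with a separate fit per tissue, the replicate block, or without 4L replicate 1, either 9V/null replicate or any WT replicate. The liver call was lost under 7 and the first lung call under 2, both also with the replicate block. In liver the remaining Ptprg probe sets lay close to WT in 4L mice. Their mean log2 signals were 10.46 in 4L against 10.42 in WT, and 9.41 against 9.44. At 18 weeks, when the marking probe set was lowest in 9V/null lung, the lung differences of the other 3 were -0.34, -0.23 and 0.38.

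The Adi1 probe sets split. Both of those from one sequence record rose in 4L, and the second differed by -2.79 in lung and -2.75 in liver between the lines. The third, annotated to a RefSeq transcript, differed by 0.41 in lung and -0.49 in liver. It read 1927 to 5275 in 4L lungs and 6858 to 7567 in WT lungs, lower in 4L (called) and opposite to the other 2. In 9V/null lungs it read 1991 to 6780, also below every WT array, with a difference of -0.69 (adjusted p = 0.00656) that was under the minimum fold. In all, 3 of the 10 marking probe sets are annotated to a RefSeq transcript (Gdpd3, Ifi202b and Rec8) and 7 to another record. The probe sets that are not marking had a similar split, with 3 of a RefSeq transcript, 7 of another record and 1 with none given. Probe sequences were not used here, so whether the strains differ in sequence under the probes was not tested.

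The position of the genes was taken from an annotation. In RefSeq (GRCm38.p6) Psmd6 and Ptprg lie within 2000000 bases on chromosome 14, which also holds Rec8, and Gdpd3 and Hddc3 share chromosome 7. The genes around the 10 were chosen by position and not by signal, so the difference between the lines could be tested in them. Of 979 probe sets of 536 other genes within 2000000 bases, 10 (1.02%) were called between the lines in lung and 17 (1.74%) in liver, against 0.673% and 0.657% of all probe sets. The median size of the difference was 0.21 in lung and 0.24 in liver around the 10 genes, and 0.23 and 0.25 over all probe sets. Neighbouring genes share chromosome regions, so these counts are a description.

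**Figure D5:**
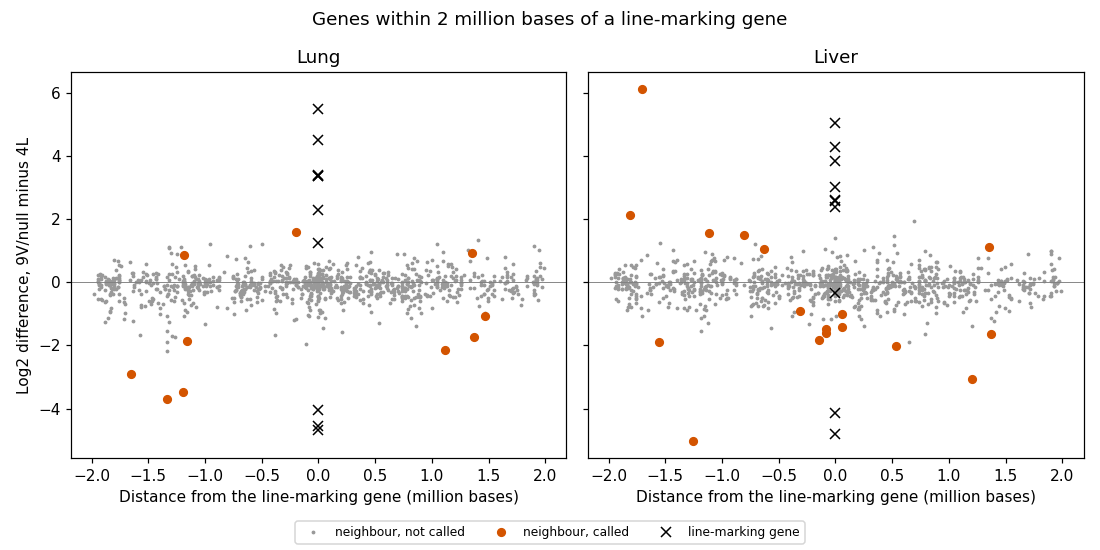
Difference between the lines (log2, 9V/null minus 4L) of probe sets of genes within 2000000 bases of a line-marking gene, by distance from that gene, lung left and liver right; grey dots were not called, orange circles were called, crosses at 0 are the 10 marking probe sets. Most of the neighbours lie near 0, with 10 called probe sets in lung and 17 in liver.

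The 2 neighbours called in both tissues were Itgax, the integrin CD11c near Gdpd3, with differences (9V/null minus 4L) of 0.94 in lung and 1.12 in liver, and Hps1, of organelle biogenesis, near Pik3ap1, with -1.72 and -1.64. The others are examples chosen after their values were seen. Around Pik3ap1 6 of 91 probe sets were called in liver. These included the cytochrome P450 genes Cyp2c39 (6.11), Cyp2c38 (2.13) and Cyp2c37 (-5.02). Around Ifi202b 4 of 68 were called in liver, among them the family members Ifi209 (-0.92) and Mndal (-1.61 and -1.47 at its 2 probe sets). In lung the difference of Ifi204 was 1.61. The p200 genes next to Ifi202b thus did not all go its way, and around Psmd6 and Ptprg 0 probe sets of other genes were called in either tissue.

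The levels of the genes across arrays were set against each other after centring each tissue on its mean. Over 39 arrays, which hold the same lines the rule used, Gdpd3 was most like Pik3ap1 (Pearson's r = 0.946), Psmd6 (0.930) and Ywhaz (0.912). Adi1 was most like Sfxn2 (0.866) and Hps1 (0.843), and Arhgap26 like Hps1 (0.857). Ptprg was most like Ildr2 (0.880), Hddc3 like Gstp3 (0.873) and Rec8 like the glutathione transferase Gstm6 (0.780) and the galactosylceramidase Galc (0.759). Psmd6 and Tmem87a, on different chromosomes, had an r of 0.930, and the lowest size among the 45 pairs was 0.397, between Hddc3 and Rec8. These correlations mix separation of the lines in 1 or both tissues with other variation, and carry no test. Gstp3, for example, differed between the lines by 0.43 in lung and 4.05 in liver.

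The partners of each gene were read from lists of related genes, 1 probe set a gene. Of 30 other 26S proteasome subunits, 9 exceeded WT in 4L lung and 6 did in 9V/null lung, while 0 were below it in either. Psmb2 was higher by 2.04 in 4L and 1.76 in 9V/null lung, and Psmb5 by 1.23 and 1.22. The median of the list was 0.55 in 4L lung and 0.50 in 9V/null lung, against -0.04 and -0.12 over all probe sets. Psmd6 was -3.61 in 4L lung at its marking probe set and 0.39 (adjusted p = 0.055) at its other one. Between the lines 0 of 30 were called in lung and 0 in liver in limma, with 2 and 1 at an unadjusted p under 0.05.

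Of 11 other methionine salvage and polyamine genes, Mri1 and Mat1a were higher in 4L lung than in WT, Mat1a by 0.93. In 4L liver the differences called were 1.27 for Enoph1, 1.03 for Srm and -0.87 for Odc1, and in 9V/null liver Enoph1 (0.94) and Srm were also called higher. Between the lines 0 of 11 were called in either tissue, with 2 in lung and 0 in liver at an unadjusted p under 0.05. Of 10 other genes of lysophospholipid and N-acylethanolamine cleavage, the list of Gdpd3, 1 was called between the lines in lung (Gdpd2, -1.48) and 1 in liver (Gdpd1, 0.87). Faah, which breaks down anandamide, was higher than in WT by 1.07 in 4L lung and 0.86 in 9V/null lung.

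Of 7 other p200 genes, Ifi204 differed from WT by -3.42 in 4L lung and -1.81 in 9V/null lung, and Ifi203 by -1.26 in 9V/null lung, while Ifi213 was higher than in WT in 4L liver, by 1.87. Of 12 interferon response genes 1 was called between the lines, Ifit2 in liver (-1.51), where 11 of the 12 had an unadjusted p under 0.05 and the median was -1.04, against -0.04 over all probe sets. In lung 0 of the 12 were called in limma and 1 had an unadjusted p under 0.05. Bst2 was higher than in WT in the lungs of both lines, by 1.45 and 1.24. Of 11 other cohesin genes, Nipbl, the cohesin loader, was lower than in WT in lungs of both lines (-1.41 in 9V/null), and Pds5b in 4L lung (-0.92). Of 16 other receptor tyrosine phosphatases 0 were called against WT or between the lines, with 0 to 2 at an unadjusted p under 0.05 in each comparison. Of 11 B cell receptor and phosphoinositide 3-kinase adaptor genes Pik3cd differed from WT by -0.93 in 4L lung, 0 were called between the lines, with 3 in lung and 2 in liver at an unadjusted p under 0.05, and of 5 genes around Arhgap26 function (the GRAF family and focal adhesion partners) 0 were called, with 0 in both. Of 5 genes related to Hddc3, Nudt1 was higher by 1.27 in 4L lung and 0.85 in 9V/null lung. Of 4 genes of the family of Tmem87a 0 were called in any of these comparisons, with 0 to 2 at an unadjusted p under 0.05.

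Enzymes and partners of glucosylceramide were read in the same way. Of 10 measured, 0 were called against WT in 4L lung and 0 in 4L liver, with 5 and 6 at an unadjusted p under 0.05. Over all 45037 probe sets 16330 and 12495 had such a p. In 9V/null lung Ugcg, the glucosylceramide synthase, was higher by 1.52 and Gla, the lysosomal alpha-galactosidase, by 1.31. Between the lines Gla was higher in 9V/null lung by 0.95 and Gba2, the non-lysosomal glucosylceramidase, in 9V/null liver by 1.02. Of 29 genes close to the mutated gene itself, 0 were called between the lines in lung and 0 in liver, with 2 and 5 at an unadjusted p under 0.05. Fdps, of isoprenoid synthesis, was higher than in WT by 0.88 in 4L lung and 0.94 in 9V/null lung. Of 6 genes known for alleles that differ among inbred strains, 1 was called between the lines, the class II gene H2-Ea, higher in 9V/null lung by 2.51.

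Macrophage markers, of the cells that store the lipid, were read beside the 10 genes, and 2 of 8 were called between the lines in each tissue. Summed, they reached 72638 to 167825 on 9V/null lung arrays, 64713 to 97322 on 4L lung arrays and 50949 to 58837 on WT lung arrays, and the liver sums were 38746 to 78338, 40901 to 66624 and 34251 to 35582. Between the lungs of the lines (9V/null minus 4L) Cd68 differed by 1.32 and Gpnmb by 2.56, and between the livers Gpnmb by 3.67 and Lgals3 by 1.84. Cd68 exceeded WT by 2.23 in lungs of 9V/null mice and by 0.92 in those of 4L mice. Over the 8 markers the median difference between the lines was 0.22 in lung and -0.13 in liver, against -0.05 and -0.04 over all probe sets. Marco was called above WT in 4L mice only, by 1.37 in lung and 1.75 in liver. The part of macrophage number in the 10 genes was not tested, and in bulk tissue fewer cells of a type and less RNA per cell cannot be told apart.

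The tissue of each array matched its label by its defining genes. Of the liver arrays 1 stood apart, and the hepatocyte signal varied widely between lung arrays. Sftpc, of alveolar type 2 cells, read at least 46367 in lung and at most 956 on 18 of 19 liver arrays, and 5252 on replicate 1 of the 4-week 4L livers, where Scgb1a1 of airway club cells read 14186 against 1829 at most on the others. Without that array 0 calls of marking probe sets against WT were lost. In lung 7 of 8 hepatocyte markers were lower in 9V/null than in WT, with a median of -3.19, and their summed signal was 939 to 19516 in 9V/null, 1470 to 68845 in 4L and 14287 to 40688 in WT lung. The part of this in the lung values of the 10 genes was not tested. Replicate arrays of a group had rank correlations of 0.872 to 0.973, and 4.39% to 12.4% of values per array lay under the floor.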

How the data were processed

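The authors hybridised pooled RNA to Affymetrix Mouse Genome 430 2.0 arrays and deposited linear signal intensities from GCOS 1.1, scaled so that the trimmed mean of each of the 39 arrays was 1500. Arrays have no read depth, so precision rests on how many there are. The members and the gene lists were chosen with earlier results of these data known. Of 45101 probe sets, 64 controls were left out. Signals under 16 were set to 16 and taken to log2. A mean for each of 18 groups was fitted with limma 3.58.1 in R 4.3.3, with Benjamini-Hochberg adjustment within each comparison over 45037 probe sets, and calls were adjusted p-values no higher than 0.01 with a change of 1.8-fold or more. The fit was tested on simulated data. For each gene the marking probe set had the largest lung difference between the lines. From each list up to 4 called genes of largest fold were named, by the probe set of highest mean signal, and neighbours called in both tissues. Tables were made with pandas 2.3.3 in Python 3.11.15. Same-numbered lung and liver arrays did not deviate together (r from -0.05 to 0.09, 0 of 8 pairs over 0.1), so numbers were not taken as pairs. Alternatives included other floors, scalings, filters and array weights, a replicate block and leaving out arrays.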

Additional observations from a re-analysis of the deposited data

Results flagged for a closer look

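Among the 21 probe sets, each tested over the 4 WT lung arrays, 2 had an array far from the other 3, where chance flags about 1 in 20 groups. Ifi202b read 882 on WT lung replicate 1 and 333 to 364 on the other 3, a gap of 0.909 of the whole range. An Arhgap26 probe set other than the marking one read 67.9 on WT lung replicate 4 and 272 to 346 on the other 3, a gap of 0.853 of the range. The cause was not tested.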

How the results depend on the processing

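For the 37 calls of marking probe sets, 735 of 771 alternative values kept direction and call, 36 lost the call and 0 reversed. All 11 results that lost it at least once were at 28 weeks or between WT lung and liver. The calls of 4L against WT were at probe sets chosen for a difference between the lines on these same arrays. Their kept direction is therefore no separate support. Of the 21 probe sets, the count in 9V/null lung against WT was 0 and became 1 with a floor of 64, quantile normalization, median centring, without the dimmest probe sets or with a trended robust prior, 2 with a separate fit per tissue, array weights or without the 12-week 4L liver array, and 5 at an adjusted p of 0.05 with no minimum fold. In 9V/null liver the count of 1 became 0 with a replicate block, array weights or 12 to 28 weeks only. At 28 weeks the 4L liver count of 8 became 3 with a separate fit. The age change in 9V/null lung had 1 call in place of 0 with a floor of 64, quantile normalization, median centring, without the dimmest, a trended prior or an adjusted p of 0.05. WT lung against liver had 16 in place of 10 at 0.05. The 4L effect between tissues had 0 calls, and 4 with a floor of 64, 3 at 0.05 or with array weights, 2 with quantile normalization, without the dimmest, with a trended prior or without the 12-week array, and 1 with median centring or without the 4-week 4L liver array. Leaving out 1 replicate gave 11 to 13 calls in 4L lung, 10 to 11 in 4L liver, 0 to 2 in 9V/null lung (2 without 4L replicate 1 or 2), 0 to 1 in 9V/null liver, 4 to 11 in 4L lung and 5 to 8 in 4L liver at 28 weeks, 5 to 11 between WT tissues, and 0 to 0 in all others. The replicate block gave 11 in 4L lung, 10 in 4L liver and 7 in each tissue at 28 weeks, and numbers shared by arrays do not pair them. The 2 arrays left out alone were chosen after seeing the data. Except where the fewer arrays or probe sets show it, the cause was not tested. Values near the floor, as in Arhgap26, Ifi202b and Rec8, have no order under it.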
